A study of Mus musculus and Homo sapiens with 33 samples.

Results

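The comparison described here is that of H358 cells made to overexpress the circular RNA cEMSY with H358 cells that received an empty vector. It is described across the protein-coding genes with a mean level of 20 or more. That rule used the gene type and the mean level in the authors' deposited table and no fold change, and it kept 12360 of the 20347 genes listed. Among protein-coding genes, 2393 lay under the minimum and 5594 listed genes were of other types. The gene just inside the minimum was ADGRE2, with a mean of 20.02 and a log2 fold change of 1.80 ± 0.59, and the gene just outside was RET, with a mean of 19.97 and 1.23 ± 0.61.

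H358 is an established human line from a lung carcinoma, of epithelial origin. Each group had 3 libraries of total RNA, depleted of ribosomal RNA and prepared by a strand-keeping kit. The overexpressing group carries cEMSY overexpression as both its genotype and its treatment, and the control group is labelled WT with the treatment EV, for empty vector. The labels give no vector type, promoter, clone, dose or time after transfer, and they number the libraries without saying that they came from separate cultures, so the p-values measure a spread that may be technical. The study's design text says that the comparison was made to look for the mechanisms by which the circular RNA acts on immunogenic cell death and on immune checkpoint therapy.

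A circular RNA is a closed loop made when the end of an exon is spliced back to the start of the same or an earlier exon. Overproduced RNA can meet the cell's sensors of foreign nucleic acid. Those sensors switch on interferon genes, the secreted interferons act on receptors at the surface, and a set of interferon-stimulated genes follows. Inflammatory chemokines are driven largely through the route of NF-kB.

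Every level, log2 fold change, standard error (written after ±) and adjusted p given below is that of the authors' deposited table. A level is the authors' normalized mean over libraries, which is not divided by gene length, so levels of different genes are not compared. Positive fold changes mean more RNA with cEMSY overexpression. A gene is said to have risen or fallen where its adjusted p was under 0.05. Values for single libraries were not used here, so the overlap of the groups cannot be shown. In bulk RNA, a change in the number of cells that express a gene and a change in RNA per cell cannot be told apart.

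EMSY, the host gene of the circular RNA, rose by 3.84 ± 0.07 log2 in the authors' deposited table, which is 14.3-fold. Reads summed over the gene cannot tell the circle from linear EMSY transcripts. TARDBP, the gene of the splicing regulator TDP-43, fell by 0.50 ± 0.06 log2.

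The response was wide and mostly shallow. Of 12355 genes with an adjusted p in the authors' deposited table, 5429 were called (43.9%): 2427 rose (19.6%) and 3002 fell (24.3%). The median log2 fold change of all members was -0.03, with quartiles of -0.30 and 0.29. Small changes were mostly decreases and large changes were mostly increases: at a log2 change of 1 or more, 784 genes rose and 411 fell, and at 3 or more, 88 rose and 33 fell. The balance also moved with level. Between a mean of 20 and 100, 22.9% of genes rose and 9.37% fell, whereas between 1000 and 10000, 16.5% rose and 38.8% fell. A gene near the minimum can pass it through the group in which it is high, and the median standard error was 0.40 below a mean of 100 against 0.09 at 1000 or more. Counts and single calls among low genes are therefore not used as support. That includes the calls of CCL3, DHX58, IL22RA2, CD4 and S100A9 below, which have large increases near the minimum. A list count given below without a share is a description, to be set beside the shares over all members and by level.

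**Figure D1:**
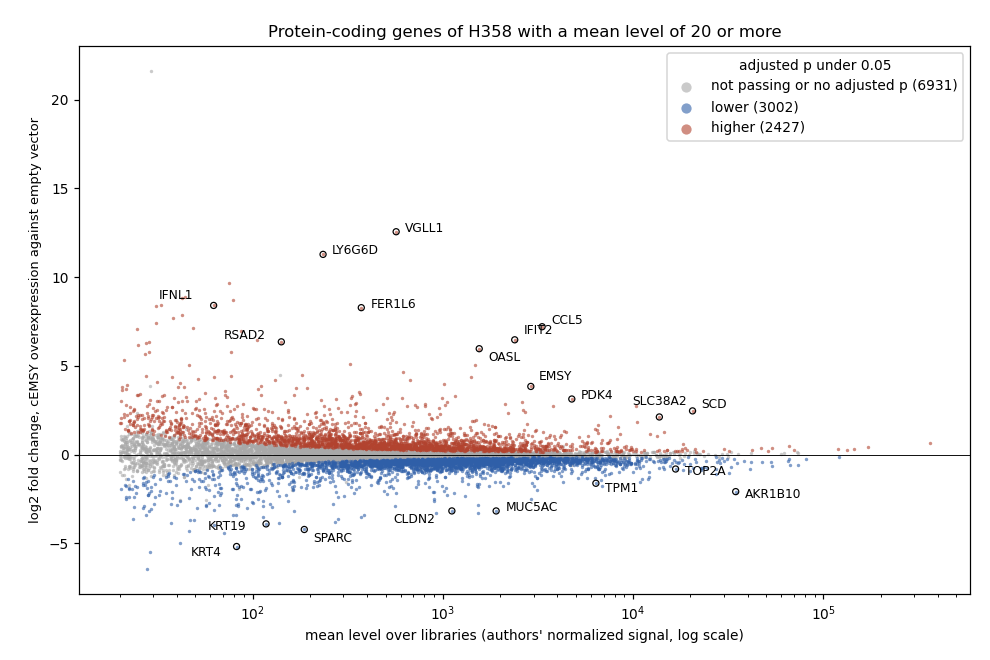
Mean level over libraries (authors' normalized signal, log axis) against the log2 fold change of each of the 12360 genes, red where the gene rose, blue where it fell, grey where it did not pass or had no adjusted p. Circles mark named genes: VGLL1, with a log2 fold change of 12.55, stands at the top among called genes, while AKR1B10 fell by 2.09 at a mean of 34653.

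Of the 20 largest increases among genes with a mean of 100 or more, 10 belonged to the interferon and chemokine lists: CCL5, IFIT2, CXCL11, RSAD2, OASL, IFIT1, ISG15, IFIT3, HERC5 and IFI44. The lists were chosen with earlier results of these data known, and their share of all genes at that level was not counted. The overlap is therefore a description only. Among the other genes of these 20, in the authors' deposited table VGLL1, a cofactor of the TEAD transcription factors, had the largest log2 fold change, at 12.55 ± 1.18. LY6G6D, a lipid-anchored surface protein, followed at 11.28 ± 1.19, and FER1L6, of the ferlin family of membrane proteins, at 8.27 ± 0.57. Fitted values of this size depend on a group close to 0, and without library values they have no lower bound here. CIDEC, a lipid droplet protein, rose by 5.10 ± 0.25 log2. TRIB2, a pseudokinase, rose by 4.46 ± 0.31 log2. NR4A2, an orphan nuclear receptor, rose by 3.72 ± 0.27 log2, and COL21A1, a collagen, by 3.88 ± 0.32 log2. EMSY was among these 20 as well.

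At the other end, SPARC, a matrix glycoprotein, had the largest decrease among genes with a mean of 100 or more. It fell by 4.22 ± 0.32 log2 in the authors' deposited table. KRT19, a keratin of simple epithelia, fell by 3.91 ± 0.31 log2, and SERPINA3, an acute-phase protease inhibitor, fell by 3.87 ± 0.30. LCN2, which binds bacterial siderophores, fell by 3.63 ± 0.20 log2. WNT5A, a ligand of non-canonical WNT signalling, fell by 3.51 ± 0.36 log2. MUC5AC, a gel-forming airway mucin, fell by 3.18 ± 0.14 log2, and CLDN2, a pore-forming claudin, fell by 3.18 ± 0.10. The receptor genes NTRK3 (-2.86 ± 0.12) and GFRA1 (-2.77 ± 0.24) were also in this group.

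The p-value was written as 0 for 10 members: PDK4, CPS1, PTGS2, IFIT1, IFIT2, IFIT3, OASL, CCL5, EMSY and AKR1B10. PDK4, which inhibits pyruvate dehydrogenase, rose by 3.13 ± 0.07 log2 in the authors' deposited table. CPS1, the first enzyme of the urea cycle, rose by 2.75 ± 0.06 log2 at a mean of 10414. PTGS2, the inducible cyclooxygenase, rose by 2.15 ± 0.06 log2 at a mean of 7552. AKR1B10, a retinal and aldehyde reductase, was the only one of the 10 to fall. CPS1 and PTGS2 were singled out after their values were seen.

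Of 11 interferon genes listed, 6 were in the authors' deposited table and 4 were members. The type III interferons IFNL1, IFNL2 and IFNL3, which act mainly on epithelia, had log2 fold changes of 8.40 ± 1.22, 8.87 ± 1.24 and 8.81 ± 1.23 at means of 62.4, 44.2 and 42.4. These genes pass the minimum level only where one group is high, and with the other group close to 0 the fitted folds are no bound, so their calls are not used as support. IFNL2 and IFNL3 are near-identical copies between which reads can be split, so their values are uncertain as separate genes. IFNE, a type I interferon of epithelia, rose by 0.88 ± 0.37 log2. IFNB1, the main type I interferon of non-immune cells, lay under the minimum with a mean of 16.4. IFNB1 is named after its value was seen, and its log2 fold change was 7.45 ± 1.33.

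Among 15 sensors of RNA and DNA, 4 rose and 1 fell. The 3 RIG-I-like receptors, which detect double-stranded or uncapped RNA, had the largest changes of the list in the authors' deposited table. DDX58, which encodes RIG-I, rose by 2.60 ± 0.13 log2. IFIH1, which encodes MDA5, rose by 2.87 ± 0.16 log2. DHX58, their regulator LGP2, had 3.69 ± 0.72 at a mean of 21.5, and its call is not used as support. EIF2AK2, the RNA-activated kinase PKR, did not pass, at -0.34 ± 0.14 with an adjusted p of 0.0526. The DNA sensor CGAS (-0.31 ± 0.20) and its adaptor STING1 (0.72 ± 0.57) did not pass either; these genes and TBK1 below were named outside the rule because the pathway runs through them. Of 17 adaptors and kinases between sensors and interferon genes, 1 rose and 3 fell. MAVS, the mitochondrial adaptor of RIG-I and MDA5, stood at 0.06 ± 0.07, and the kinase TBK1 at 0.09 ± 0.10. MYD88, the adaptor of most Toll-like receptors, fell by 0.43 ± 0.12 log2, and TRAF6, a ubiquitin ligase after it, fell by 0.57 ± 0.16.

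Receptors and signal carriers moved less than effectors. In the list of interferon receptors and the JAK-STAT route, 12 of 23 rose and 4 fell, with a median log2 fold change of 0.29. IFNGR1, a chain of the interferon-gamma receptor, rose by 1.40 ± 0.07 log2 in the authors' deposited table. IFNLR1, the chain particular to type III interferons, rose by 1.24 ± 0.44. STAT2 and IRF9, parts of the factor that drives interferon-stimulated genes, had log2 fold changes of 0.71 ± 0.16 and 0.68 ± 0.16. JAK1, a kinase bound to these receptors, fell by 0.83 ± 0.06 log2, whereas JAK2 rose by 0.91 ± 0.15. The type I receptor chains IFNAR1 (-0.01 ± 0.08) and IFNAR2 (-0.11 ± 0.11) did not pass. Of 9 interferon regulatory factors and their partners, 4 rose and none fell; IRF3, the factor activated behind the sensors, rose by 0.32 ± 0.10, and IRF1 did not pass, at 0.09 ± 0.17.

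The antiviral effectors rose as a list, 22 of 33 with none lower and a median log2 fold change of 0.78. The range was very wide. IFIT2, IFIT1 and IFIT3, which bind foreign RNA, had log2 fold changes of 6.46 ± 0.14, 5.05 ± 0.12 and 4.37 ± 0.11 in the authors' deposited table. OASL, an activator of RIG-I, rose by 5.96 ± 0.14 log2. RSAD2, which encodes viperin and makes a chain-terminating nucleotide, rose by 6.35 ± 0.50 log2. ISG15, a ubiquitin-like modifier, rose by 4.64 ± 0.19 log2. OAS3, which makes the activator of RNase L, stood at -0.09 ± 0.07, and the nucleotide-destroying enzyme SAMHD1 at 0.01 ± 0.15. Neither passed.

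In a further list of 44 interferon-stimulated genes, 20 rose and 9 fell. GBP5, a GTPase that attacks pathogen vacuoles, had a log2 fold change of 5.76 ± 1.00 in the authors' deposited table. That error is above the median of 0.40 for genes below a mean of 100, so the call of GBP5 is not used as support. GBP4 had a log2 fold change of 2.71 ± 0.35. IFI44 rose by 3.77 ± 0.23 log2. TNFSF10, the death ligand TRAIL, rose by 3.03 ± 0.50 log2. Members that fell included PLSCR1, a scramblase with antiviral activity, at -0.74 ± 0.09, NMI, an interferon-induced partner of STAT proteins, at -0.83 ± 0.14, and SP100, a nuclear body protein, at -0.55 ± 0.12. ADAR, which edits double-stranded RNA, stood at 0.00 ± 0.07 at a mean of 6849.

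**Figure D2:**
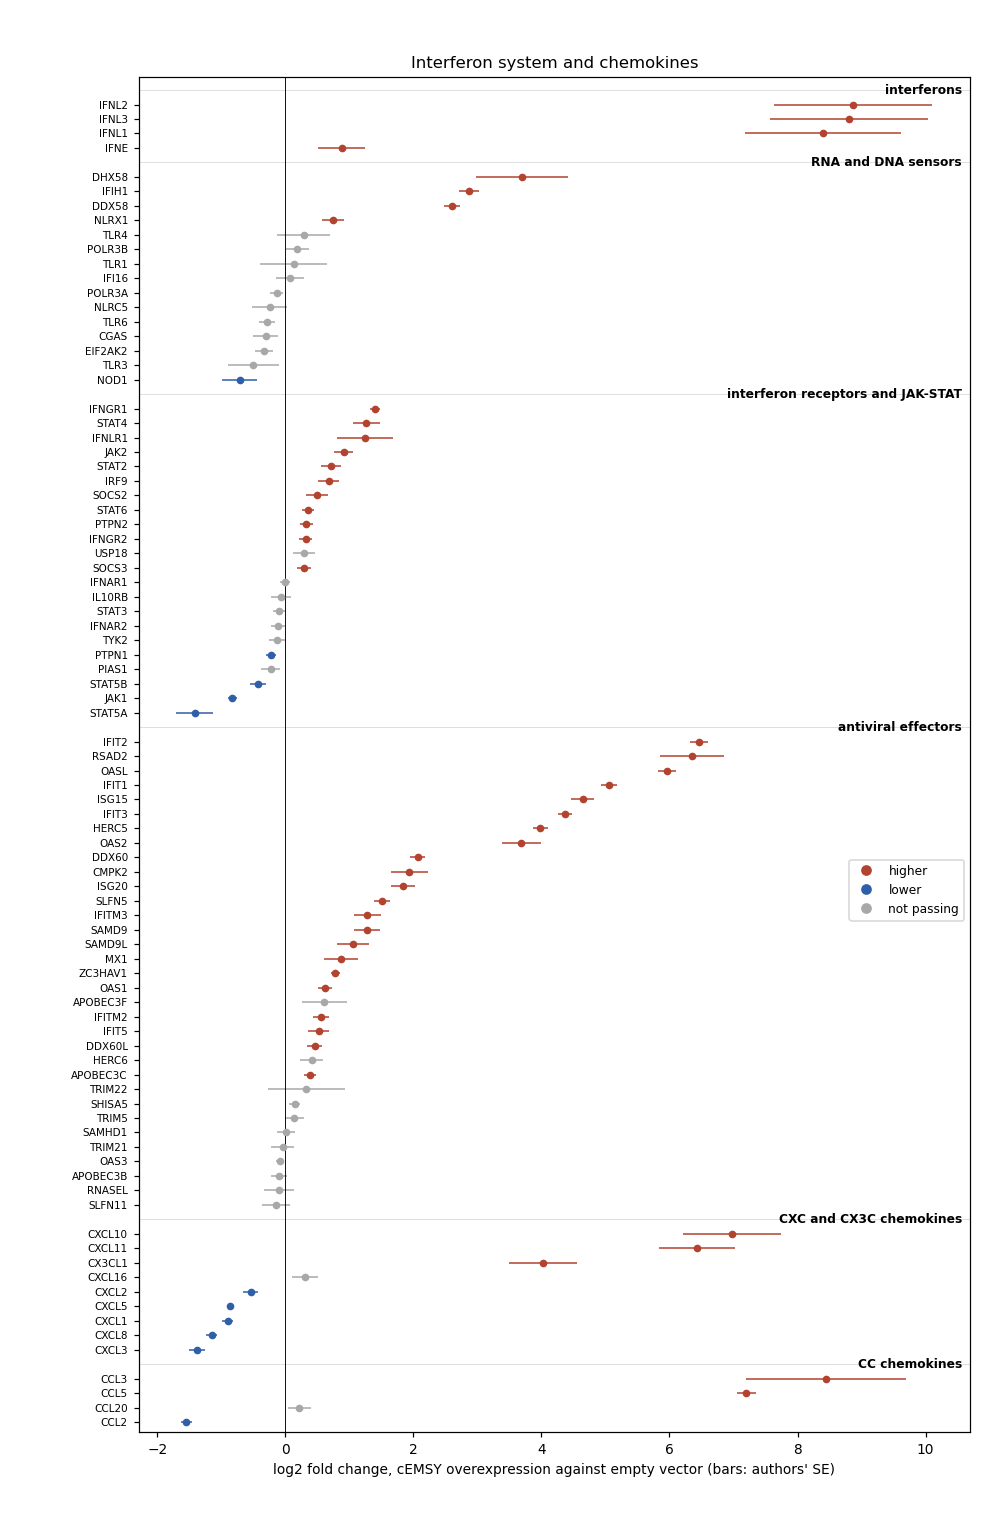
Log2 fold change of most members of 6 lists, with the authors' standard error as bars, red where the gene rose, blue where it fell and grey where it did not pass. Interferons, RIG-I-like receptors and most antiviral effectors lie right of 0. Among chemokines, CXCL10, CXCL11, CX3CL1 and CCL5 rose, while CXCL1, CXCL2, CXCL3, CXCL5, CXCL8 and CCL2 fell. CCL3, near the minimum level, also lies right of 0, and its call is not used as support.

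Chemokines moved in both directions. CXCL10 and CXCL11, ligands of the T cell receptor CXCR3, had log2 fold changes of 6.98 ± 0.77 and 6.43 ± 0.59 in the authors' deposited table. CCL5, which attracts T cells and macrophages, rose by 7.20 ± 0.15 log2 (147-fold) at a mean of 3327. CCL3 had 8.44 ± 1.25 at a mean of 32.9. It passes the minimum level only where one group is high, so its call is not used as support. The membrane-bound CX3CL1 rose by 4.02 ± 0.54. All 5 measured neutrophil-attracting chemokines of the CXCR2 group fell. CXCL5 fell by 0.86 ± 0.06 log2 at a mean of 18278. CXCL8, or interleukin 8, fell by 1.15 ± 0.08, and CXCL1, CXCL2 and CXCL3 had -0.90 ± 0.08, -0.54 ± 0.12 and -1.39 ± 0.12. CCL2, which attracts monocytes, fell by 1.55 ± 0.09 log2.

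None of 14 NF-kB subunits and kinases rose and 5 fell in the authors' deposited table. NFKB1, which encodes p105 and p50, fell by 0.73 ± 0.11 log2, and RELB fell by 0.63 ± 0.12. MAP3K14, the kinase of the non-canonical branch, fell by 0.83 ± 0.08, and its inhibitor TRAF2 fell by 0.90 ± 0.11. RELA did not pass, at -0.09 ± 0.10. Of 23 feedback and target genes, 7 rose and 9 fell. NFKBIA, the inhibitor made in response to NF-kB, rose by 0.50 ± 0.08 log2, and IER3 by 1.11 ± 0.08, whereas TNFAIP2 fell by 1.26 ± 0.06 and the adhesion molecule ICAM1 fell by 0.90 ± 0.18. TNFAIP3, which encodes the deubiquitinase A20, stood at -0.04 ± 0.08.

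Other cytokines were mixed. Of 9 interleukins and colony factors, 3 rose and 2 fell in the authors' deposited table. IL6, a driver of the acute-phase response, rose by 2.40 ± 0.22 log2, and IL15, a survival factor for natural killer and memory T cells, rose by 1.13 ± 0.11. IL32 fell by 1.80 ± 0.16 and IL11 fell by 1.67 ± 0.17. Among 19 interleukin receptor genes 8 rose and 1 fell, many at low levels; IL22RA2, a secreted decoy receptor of interleukin 22, had 6.30 ± 1.11 at a mean of 27.4. Of 14 TNF receptor genes 4 rose and 6 fell, with CD40 at 1.27 ± 0.30, the death receptor FAS at 0.71 ± 0.17 and TNFRSF9 at -1.63 ± 0.40. Of 7 TNF ligands 1 rose and 1 fell. In the complement and acute-phase list 8 of 17 rose and 3 fell: ceruloplasmin (CP), a copper carrier, rose by 2.71 ± 0.08 log2 and complement C3 by 0.84 ± 0.06. S100 and antimicrobial genes moved the other way, with 7 of 12 lower and 1 higher. S100A10, a partner of annexin A2, fell by 0.98 ± 0.07, and S100A9, a neutrophil alarmin, rose by 3.36 ± 0.61 at a mean of 25.01.

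Of 15 MHC class I and peptide-loading genes, 4 rose and 3 fell in the authors' deposited table, shares near those of all members. B2M, the invariant chain, rose by 0.37 ± 0.06 log2, and HLA-E, a ligand of an inhibitory natural killer cell receptor, by 0.41 ± 0.09. HLA-B stood at 0.20 ± 0.56 at a mean of 28.9. HLA genes are polymorphic and near-identical, so reads can be split between them and these values are uncertain. The peptide transporter TAP1 stood at 0.07 ± 0.10, while its partner TAP2 fell by 0.59 ± 0.14. CIITA, the switch of MHC class II, rose by 1.04 ± 0.39, and 2 of 6 class II genes rose in all. Among 12 checkpoint ligands 3 rose and 4 fell: CEACAM1 rose by 2.47 ± 0.30, PVR fell by 0.95 ± 0.06 and VSIR fell by 1.49 ± 0.20. CD274, which encodes PD-L1, stood at 0.01 ± 0.64 at a mean of 35.1. HLA-B and CD274 were named outside the rule. Of 13 natural killer cell ligands 4 rose and 1 fell, with ULBP1, a ligand of NKG2D, at 1.68 ± 0.26.

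Of 18 genes for danger signals of immunogenic cell death, 5 rose and 8 fell in the authors' deposited table. Calreticulin (CALR), whose surface exposure marks immunogenic death, stood at 0.14 ± 0.07 with an adjusted p of 0.12. HSP90AA1 fell by 0.45 ± 0.05 log2, and NT5E, which makes adenosine outside the cell, fell by 0.95 ± 0.11. LRP1, the receptor for exposed calreticulin, rose by 1.13 ± 0.10. RNA levels do not show the surface exposure or release of these proteins. Of 15 caspase and pyroptosis genes 1 rose and 8 fell: CASP4, which senses lipopolysaccharide in the cytosol, fell by 1.12 ± 0.20, and CASP9 rose by 0.84 ± 0.19. In the BCL2 family 6 of 21 rose (28.6%) and 7 fell (33.3%), against 19.6% and 24.3% over all members. Death-promoting genes moved both ways. BMF (3.15 ± 0.42), BBC3 (1.22 ± 0.24) and PMAIP1 (1.17 ± 0.10) rose, while BID (-0.52 ± 0.11) and BOK (-0.46 ± 0.17) fell. The survival gene BCL2A1 fell by 2.08 ± 0.27, and BCL2L1, another, did not pass, at -0.07 ± 0.06. In the necroptosis and ferroptosis list 4 of 16 rose and 4 fell.

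Of 33 p53 target genes, 19 rose and 4 fell, with a median log2 fold change of 0.39. CDKN1A, the inhibitor p21 of cyclin-dependent kinases, rose by 1.75 ± 0.08 log2 in the authors' deposited table. GDF15, a stress cytokine that is also an ATF4 target, rose by 3.16 ± 0.11, and TP53INP1 by 1.88 ± 0.19. Of 18 mitochondrial permeability genes 3 rose and 5 fell; VDAC1, the main outer membrane channel, stood at -0.13 ± 0.06, and PPIF, a regulator of the permeability pore, fell by 0.42 ± 0.10.

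Genes of cell division fell together, by small steps with narrow errors. All 32 mitotic kinesins and spindle proteins fell in the authors' deposited table, with a median log2 fold change of -0.79 against -0.03 for all members. KIF20A, a kinesin of cytokinesis, fell by 0.96 ± 0.08 log2, and KIFC1, which focuses spindle poles, fell by 1.10 ± 0.10. Of 33 kinetochore and centromere genes 27 fell (81.8%) and none rose. HJURP, which loads the centromeric histone, fell by 1.59 ± 0.08, or 3.01-fold. Of 25 mitotic kinases and checkpoint genes 17 fell and 1, the phosphatase gene CDC25B, rose by 0.22 ± 0.06. CDC20, an activator of the anaphase-promoting complex, fell by 1.20 ± 0.08. Of 26 condensin, cohesin and topoisomerase genes 21 fell and none rose: TOP2A fell by 0.82 ± 0.05 at a mean of 16742, and the proliferation marker MKI67 fell by 0.97 ± 0.09.

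Genes of S phase fell as well. Of 52 DNA replication genes 38 fell (73.1%) and none rose in the authors' deposited table, with a median log2 fold change of -0.40. RFC3, of the clamp loader, fell by 0.92 ± 0.08, and GINS1, of the replicative helicase, fell by 0.86 ± 0.09. PCNA, the sliding clamp, did not pass, at -0.14 ± 0.07. Of 26 nucleotide supply genes 21 fell and none rose. RRM2, a subunit of ribonucleotide reductase, fell by 1.00 ± 0.06 log2, and TK1, a thymidine kinase, fell by 0.77 ± 0.09. In homologous recombination and the Fanconi anaemia pathway 19 of 35 fell and 2 rose, among them the checkpoint kinase CHEK2 at 1.55 ± 0.15. Mismatch, excision and end-joining repair genes stood closer to the background, with 9 of 34 lower and 4 higher.

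Regulators of the cycle did not all move the same way. Of 27 cyclins, CDKs and inhibitors 10 fell and 6 rose in the authors' deposited table. CCNA2 and CDK1, which act in S phase and mitosis, had -0.95 ± 0.07 and -0.65 ± 0.06. The inhibitor CDKN1B rose by 0.64 ± 0.10, and CCNG2, an atypical cyclin of arrested cells, rose by 1.88 ± 0.20. Among E2F, RB and DREAM genes 10 of 20 fell and 3 rose: MYBL1 fell by 1.81 ± 0.12, whereas E2F1 stood at 0.10 ± 0.10. Of 13 replication-dependent histone genes, a family added after the table was seen, 2 rose, none fell and 11 did not pass; most had low levels, and the count is not used as support.

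**Figure D3:**
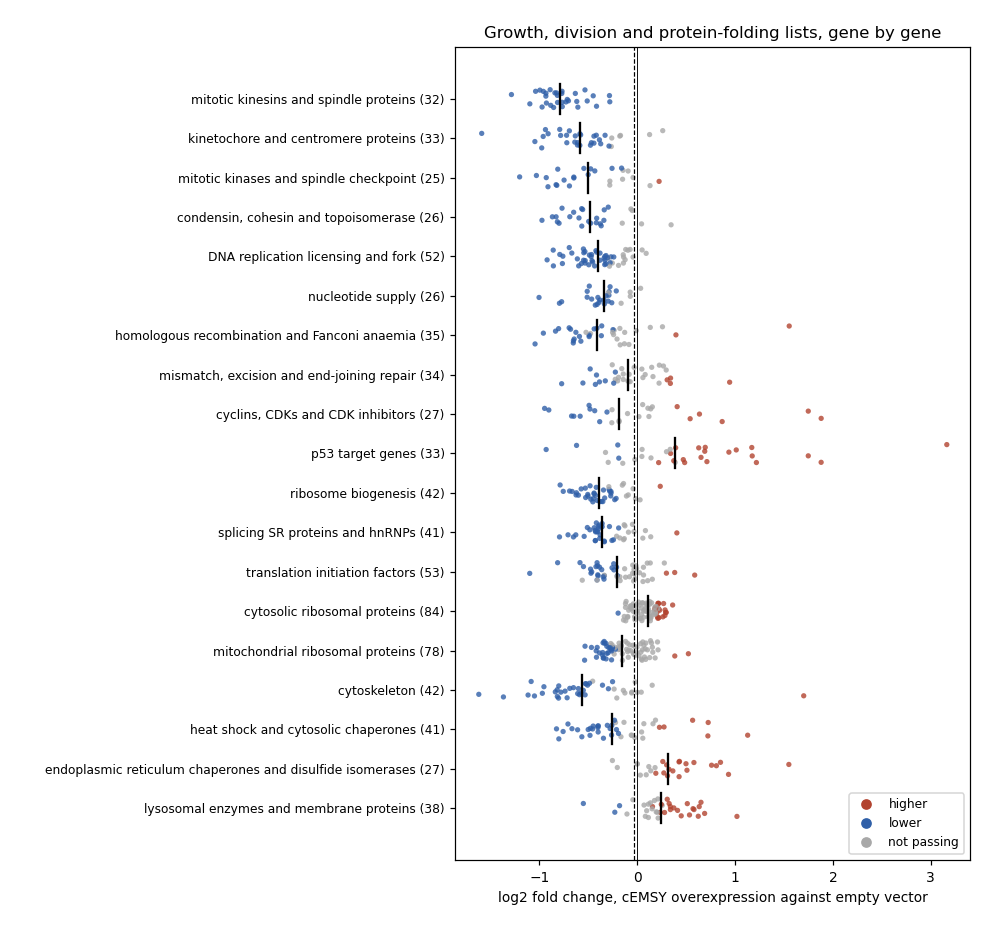
Log2 fold change of each member of 19 lists (number of members in brackets), red where the gene rose, blue where it fell and grey where it did not pass; black bars are list medians and the dashed line is the median of all members, -0.03. The mitotic kinesin and spindle list lies entirely left of 0 with a median of -0.79, while p53 targets centre on 0.39 and endoplasmic reticulum chaperones on 0.31.

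Of 42 ribosome biogenesis genes 33 fell (78.6%) and 1 rose in the authors' deposited table. NCL, which encodes nucleolin, fell by 0.69 ± 0.05 log2 at a mean of 23517, and POLR1B, a subunit of RNA polymerase I, fell by 0.79 ± 0.12. Of 41 SR proteins and hnRNPs 28 fell and 1 rose. HNRNPL, a splicing regulator, fell by 0.79 ± 0.06, and SRSF1 fell by 0.54 ± 0.07, while HNRNPA1 stood at -0.12 ± 0.05. Of 31 genes for the making, export and decay of circular RNA 15 fell and 1 rose: QKI, which promotes back-splicing, fell by 0.77 ± 0.13, and XPO4, named as an exporter of circular RNA, fell by 0.52 ± 0.11. Of 43 RNA decay genes 15 fell and 5 rose; ZFP36L1 fell by 1.02 ± 0.06 and its relative ZFP36L2, which also binds AU-rich elements, rose by 0.77 ± 0.10.

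Of 53 initiation factor genes 23 fell (43.4%) and 3 rose (5.66%) in the authors' deposited table. Over all genes with means between 1000 and 10000, 38.8% fell and 16.5% rose. EIF4G2, a scaffold of cap-independent initiation, fell by 1.10 ± 0.07 log2 at a mean of 27253. Of 84 cytosolic ribosomal protein genes 19 rose (22.6%, against 19.6% over all members), 64 did not pass and 1, RPL35, fell by 0.19 ± 0.07; the median was 0.11, and the largest increase was that of RPS25, at 0.36 ± 0.07. Ribosomal protein genes have many processed copies in the genome, so their values are less certain. Of 78 mitochondrial ribosomal protein genes 27 fell and 2 rose. Among DEAD and DEAH box helicases 21 of 51 fell (41.2%) and 4 rose (7.84%). The falling share was near the 38.8% of all genes with means between 1000 and 10000. The 4 that rose, DHX58, DDX58, DDX60 and DDX60L, are sensors or interferon-stimulated genes. The call of DHX58, near the minimum level, is not used as support. DDX18 (-0.95 ± 0.10) and DDX10 (-0.86 ± 0.13), which act in ribosome biogenesis, were among those that fell.

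Of 13 mitochondrially encoded subunits 8 rose and 1 fell in the authors' deposited table. MT-CO1, of cytochrome oxidase, rose by 0.65 ± 0.07 log2 at a mean of 362734, and MT-CYB rose by 0.49 ± 0.05; MT-ND2 fell by 0.23 ± 0.06. Of 37 nuclear genes for complex I, 5 rose and 2 fell, and of 41 for complexes II to V, 8 rose and 2 fell, so most of both sets did not pass. Import translocases fell in 10 of 28 with 1 higher. TOMM40, the pore of the outer membrane, fell by 0.68 ± 0.07. Citrate cycle genes rose in 5 of 29 and fell in 5.

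Of 21 sterol synthesis genes 14 rose and 1 fell in the authors' deposited table, with a median log2 fold change of 0.44. Enzymes late in the pathway were among those that rose: TM7SF2, a sterol reductase, rose by 2.41 ± 0.27 and MSMO1, a sterol oxidase, by 1.15 ± 0.11. HMGCS1, an enzyme early in the pathway, fell by 0.29 ± 0.07. Of 19 genes of sterol uptake, export and sensing 11 rose and 1 fell. INSIG1, which holds the SREBP factors in the endoplasmic reticulum, rose by 1.35 ± 0.10, and SREBF1, an SREBP gene, by 1.69 ± 0.09. The exporters ABCA1 (1.82 ± 0.11) and ABCG1 (2.57 ± 0.29), targets of the liver X receptors, rose too.

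Fatty acid synthesis rose in 14 of 26 genes and fell in 6. SCD, the desaturase that makes oleate, rose by 2.46 ± 0.07 log2 (5.50-fold) at a mean of 20552 in the authors' deposited table. FASN, the fatty acid synthase, rose by 1.00 ± 0.06, and FADS2, a desaturase of polyunsaturated chains, by 1.20 ± 0.06. ACLY, which supplies acetyl-CoA, fell by 0.26 ± 0.05, and ELOVL7 fell by 1.43 ± 0.11. Of 22 oxidation genes 7 rose and none fell. PPARA, the nuclear receptor that drives fatty acid oxidation, rose by 1.66 ± 0.26, and CPT2 by 0.88 ± 0.14. CPT1A, the entry step, stood at 0.13 ± 0.13.

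**Figure D4:**
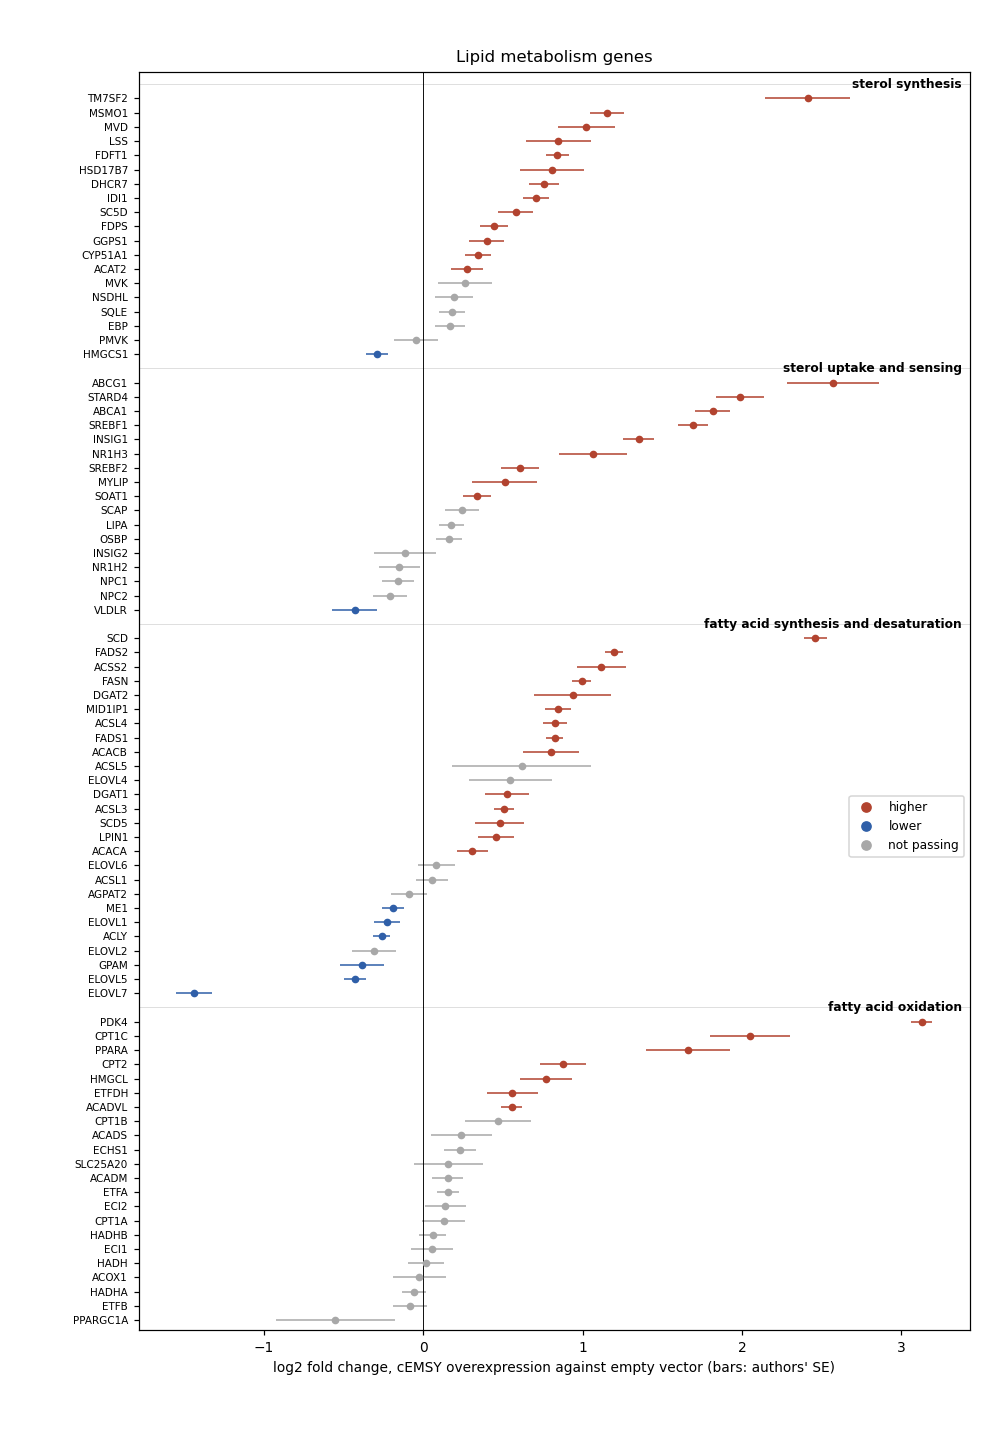
Log2 fold change of most members of 4 lipid lists, with the authors' standard error as bars and colours as before (red rose, blue fell, grey did not pass). Most genes lie right of 0; SCD at 2.46 and PDK4 at 3.13 have the largest changes relative to their errors, and ELOVL7 at -1.43 is the furthest to the left.

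In the glycolysis list 8 of 24 members rose and 6 fell. SLC2A3, the high-affinity glucose transporter GLUT3, rose by 2.82 ± 0.08 log2 in the authors' deposited table, and SLC2A1, or GLUT1, fell by 1.00 ± 0.08. HK1 rose by 1.06 ± 0.07. PFKFB3, which makes an activator of phosphofructokinase, fell by 1.33 ± 0.05, and the lactate exporter SLC16A3 fell by 0.80 ± 0.16. The enzyme genes ALDOA (-0.06 ± 0.07) and GAPDH (0.11 ± 0.07) did not pass. Of 19 hypoxia-responsive genes 9 rose and 4 fell: the prolyl hydroxylase EGLN3 rose by 2.69 ± 0.16, and HIF1A stood at -0.03 ± 0.08.

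In each list of genes against oxidants and drugs, more members fell than rose. Of 41 NRF2 target and redox genes 19 fell (46.3%) and 9 rose in the authors' deposited table, with a median log2 fold change of -0.07. Over all genes with means between 1000 and 10000, 38.8% fell and 16.5% rose. Falls therefore also outnumbered rises among all genes at that level, and the count of this list is a description only. GCLM and GCLC, the 2 subunits of the enzyme that starts glutathione synthesis, had -0.82 ± 0.08 and -0.66 ± 0.09, and the cystine carrier SLC7A11 fell by 0.74 ± 0.10. NQO1, a quinone reductase often used as a readout of NRF2, stood at 0.03 ± 0.05 at a mean of 24788. Of 9 aldo-keto reductases 4 fell (44.4%) and 1 rose (11.1%), while over all genes with means of 10000 or more 44.5% fell. AKR1B10 fell by 2.09 ± 0.05 log2 at a mean of 34653, and AKR1C3 fell by 0.90 ± 0.06, while AKR1B1 rose by 0.27 ± 0.06. The AKR1C genes are near-identical and share reads, so their separate values are uncertain. In the cytochrome P450, UGT and aldehyde dehydrogenase list 11 of 26 fell and 7 rose. The receptor AHR (1.00 ± 0.09), its repressor AHRR (1.31 ± 0.24) and its target CYP1B1 (1.37 ± 0.07) rose. UGT1A1 and UGT1A6, which share their last exons, had -2.78 ± 0.51 and -3.69 ± 0.53 at means of 37.2 and 49.1.

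Protein folding differed by compartment. Of 27 chaperones and disulfide isomerases of the endoplasmic reticulum 18 rose and none fell in the authors' deposited table, with a median log2 fold change of 0.31. ERO1B, an oxidase for disulfide bonds, rose by 1.55 ± 0.12, and HSPA5, the chaperone BiP, by 0.26 ± 0.05. XBP1, a factor of the unfolded protein response, rose by 1.57 ± 0.08, and DDIT3, which encodes CHOP, by 0.90 ± 0.26, whereas the sensor gene EIF2AK3 fell by 0.41 ± 0.16. Among 16 sensors and factors 6 rose and 4 fell. Of 28 degradation and translocation genes 7 rose and 4 fell. In the cytosol 24 of 41 heat shock and chaperone genes fell and 6 rose. HSPA8, the constitutive HSP70, fell by 0.82 ± 0.07 at a mean of 27299, and its helper DNAJA1 fell by 0.61 ± 0.06. HSPA1A (-0.57 ± 0.08) and HSPA1B (-0.67 ± 0.08) are near-identical copies. HSPB1, a small heat shock protein, rose by 0.73 ± 0.08. Of 38 proteasome subunit genes 14 fell (36.8%) and 1 rose, where 38.8% of all genes with means between 1000 and 10000 fell. Of 8 immunoproteasome and activator genes 1 fell and none rose.

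ATF4 targets moved in both directions, 17 of 33 higher and 10 lower. The amino acid carrier SLC38A2 rose by 2.12 ± 0.08 log2 at a mean of 13750 in the authors' deposited table, and TRIB3 by 1.46 ± 0.10. SLC7A5 and SLC3A2, the 2 chains of the large neutral amino acid carrier, had -0.77 ± 0.05 and -0.72 ± 0.07. ATF4 stood at 0.02 ± 0.07. Of 20 cytosolic tRNA synthetases 6 fell and 2 rose. In the serine, glycine and one-carbon list 6 of 17 rose and 3 fell, with CTH, which makes cysteine, at 1.65 ± 0.27.

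Lysosomal genes rose in 20 of 38 and fell in 3. ARSA, a sulfatase, rose by 1.02 ± 0.15 log2 in the authors' deposited table, and the protective protein CTSA by 0.69 ± 0.07. Of 20 subunits of the proton pump that acidifies lysosomes 9 rose and 1 fell, among them ATP6V1A at 0.32 ± 0.09. Of 33 autophagy genes 12 rose and 3 fell. WIPI1, which binds the forming membrane, rose by 1.69 ± 0.18, GABARAPL1 by 1.40 ± 0.12, and the cargo receptor SQSTM1 fell by 0.27 ± 0.05.

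Growth-factor signalling was marked by feedback genes. Of 24 RAS-MAPK feedback genes 14 rose and 5 fell in the authors' deposited table, with a median log2 fold change of 0.55. The Sprouty gene SPRY4 rose by 1.11 ± 0.16, and DUSP5, a phosphatase of nuclear ERK, by 1.09 ± 0.09, while DUSP1 fell by 0.64 ± 0.07. Of 21 genes of the pathway itself 5 rose and 7 fell, with MAPK3 at 1.05 ± 0.13. Immediate early factors rose in 13 of 27 and fell in 9. All 3 NR4A receptors rose, NR4A1 by 2.27 ± 0.16, and EGR1 rose by 2.87 ± 0.32. FOSL1, an AP-1 subunit, fell by 2.26 ± 0.11, and JUN fell by 0.75 ± 0.08. Of 14 EGF family genes 5 rose and 6 fell, with EGFR at -0.33 ± 0.10 and its ligand TGFA at -1.57 ± 0.12. In the PI3K-AKT-mTOR list 8 of 30 rose and 2 fell.

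In the YAP and TEAD list 10 of 26 members fell, 3 rose and 13 did not pass in the authors' deposited table. VGLL1, described above, was among those that rose. CCN2, a matricellular YAP target, fell by 1.31 ± 0.15, and the receptor AXL fell by 1.31 ± 0.07. YAP1 itself stood at 0.18 ± 0.09. In TGF-beta, activin and BMP signalling 16 of 43 rose and 15 fell: the ligands BMP2 (2.59 ± 0.28), BMP6 (2.31 ± 0.17) and BMP4 (1.06 ± 0.16) rose, while TGFB2 (-1.08 ± 0.11) and SMAD3 (-1.42 ± 0.07) fell. Of 34 WNT genes 9 rose and 8 fell. AXIN2, NKD1 and ZNRF3, inhibitors induced by canonical WNT signalling, had 2.14 ± 0.14, 3.12 ± 0.27 and 1.36 ± 0.10. In the Notch list 5 of 20 rose and 3 fell, and among FGF, VEGF and PDGF genes 6 of 19 rose and 6 fell, with MET at -0.93 ± 0.09 and FGFR1 at -1.07 ± 0.09. Of 34 ephrin and semaphorin genes 17 rose and 5 fell; SEMA3A, a repellent guidance cue, rose by 2.31 ± 0.11 and EPHB2 fell by 1.79 ± 0.09.

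Keratins fell, and 8 of 10 members did so with none higher in the authors' deposited table. KRT7, KRT8 and KRT18, the keratins of simple epithelia, had log2 fold changes of -1.05 ± 0.06, -0.43 ± 0.06 and -0.38 ± 0.07 at means of 31920, 41882 and 38482. KRT4, of stratified linings, fell by 5.18 ± 0.50 at a mean of 82.4. Of 11 markers of the labelled epithelial cell type 10 were listed and 8 were members, of which 1 rose and 5 fell. Rises and falls do not test identity, and the levels of these markers were mixed. The simple keratins above had high means. EPCAM had a mean of only 40.7 (0.43 ± 0.42), and CLDN3 and CLDN7, named outside the rule, lay under the minimum with means of 11.8 and 3.64. The markers therefore did not settle the labelled cell type. Of 14 leukocyte markers 6 were listed and 4 were members; CD4 had 7.39 ± 1.28 at a mean of 31.2, CD68 fell by 0.75 ± 0.13, and CD14 (0.23 ± 0.29) and ITGAM (0.05 ± 0.49) did not pass. Of 8 endothelial and 8 fibroblast markers 1 each was a member, ESAM at -0.60 ± 0.45 and COL1A1 at 0.23 ± 0.35, and no red blood cell marker was listed. The part of other cell types in the results was not tested.

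Junction and lineage genes were mixed. Of 19 tight junction genes 5 rose and 5 fell in the authors' deposited table, with OCLN at 1.10 ± 0.13 and TJP1 at -0.76 ± 0.08. Of 16 desmosome and adherens genes 4 rose and 8 fell: plakoglobin (JUP) rose by 1.60 ± 0.09, and CDH1, or E-cadherin, fell by 0.37 ± 0.09. The mesenchymal genes CDH2 (-2.59 ± 0.11) and vimentin (VIM, -0.77 ± 0.06) fell as well; of 18 regulators of this transition 4 rose and 5 fell. Of 11 lung epithelial genes 2 rose and 5 fell, with FOXA1 at -1.92 ± 0.20 and HNF4A at -1.46 ± 0.19. Of 9 mucin genes 1 rose and 4 fell. CEACAM5 (-1.72 ± 0.19) and CEACAM6 (-2.17 ± 0.09), surface antigens of carcinoma, fell, while CEACAM1 rose.

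Cytoskeletal genes fell in 30 of 42 and rose in 1. TPM1, a tropomyosin of stress fibres, fell by 1.62 ± 0.05 log2 in the authors' deposited table, and the tubulin gene TUBB4B fell by 1.05 ± 0.07. Moesin (MSN, -0.06 ± 0.06) and ACTN1 (-0.02 ± 0.07) did not pass. Collagens were even, 8 of 19 higher and 8 lower, and chains of basement membrane collagen moved apart: COL4A1 and COL4A2, a pair read from opposite strands, had -1.58 ± 0.09 and -1.19 ± 0.07, and COL4A5 and COL4A6, another such pair, had 1.22 ± 0.12 and 1.14 ± 0.11. COL4A3 (1.54 ± 0.26) and COL4A4 (0.82 ± 0.18) rose as well. Of 21 laminin and basement membrane genes 8 rose and 5 fell, of 18 integrins 5 rose and 8 fell, and of 27 matrix proteases and inhibitors 6 rose and 11 fell. MMP7, an epithelial protease, fell by 2.35 ± 0.09. ITGB6, a chain of an activator of TGF-beta, fell by 4.32 ± 0.51 at a mean of 46.2, and of 15 serpins and cystatins 4 rose and 8 fell.

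Over the 74 lists with 10 or more members, more than 50% of members rose in 11 and more than 50% fell in 15. Of 31 symbol families of that size, none rose in more than 50% of members, and 1, the kinesins, fell in 17 of 31.

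**Figure D5:**
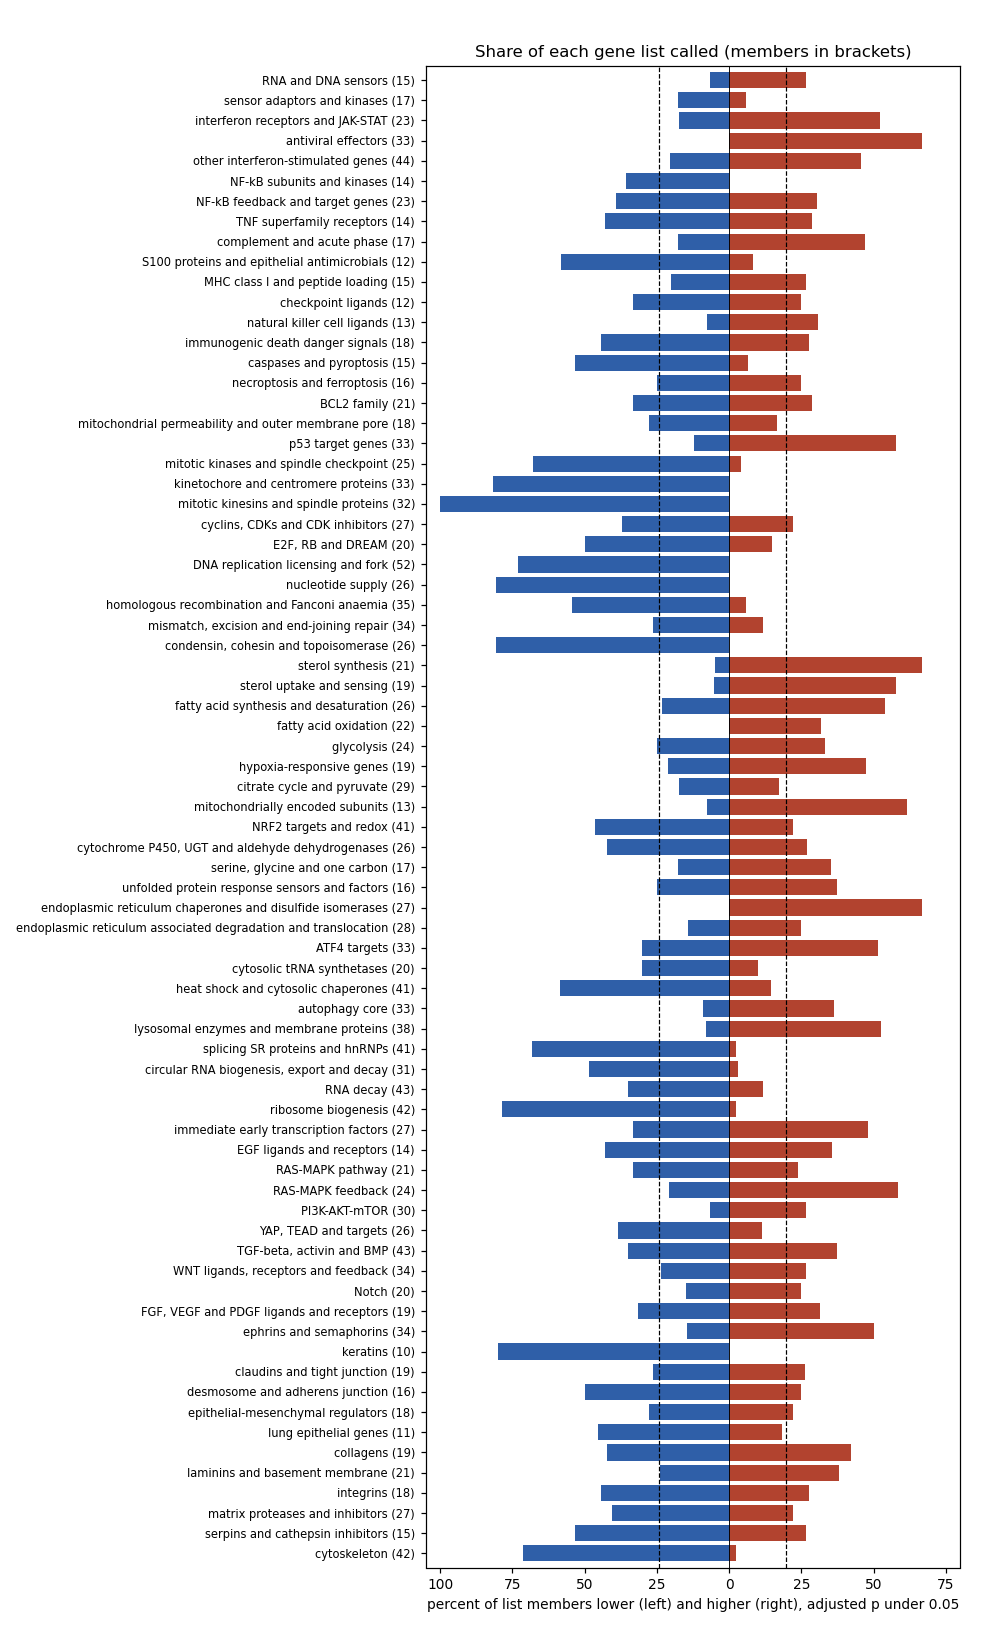
Percent of the members of each of the 74 lists that fell (blue, left) and rose (red, right) at an adjusted p under 0.05, with the number of members in brackets; dashed lines mark the shares over all members, 24.3% lower and 19.6% higher. Cell division, nucleotide supply, keratin, ribosome biogenesis, replication and cytoskeleton lists reach furthest left, and antiviral effectors, sterol synthesis and endoplasmic reticulum chaperones, each at 66.7%, furthest right.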

How the data were processed

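Total RNA of 6 H358 samples, 3 in each group, was sequenced after removal of ribosomal RNA, per the labels' protocols. The authors' deposited table gives, per gene, a mean normalized signal over libraries, a log2 fold change with its standard error, a test score (statistic), a p-value and an adjusted p. Its column names are those of DESeq2, per the file headers, where the control is named circRNA_nc and not EV. The submitters' processing notes name FastQC, MultiQC, STAR, featureCounts and the builds hg19 and mm10, with no roles or versions. The score equalled fold change over standard error within 0.001 in all 20347 rows, and 1193 rows had no adjusted p, 5 of them members. Values per library were not used here, so the depth is unknown, and the planned tests on counts were replaced by the authors' adjusted p, with 0.05 as threshold. Genes were grouped in 85 lists, 32 symbol families, 5 marker lists and 4 families added after the table was seen. Members and lists were chosen with earlier results of these data known. Genes named are EMSY and TARDBP, the 20 largest changes each way at a mean of 100 or more, and, per list, up to 6 called members each way, up to 4 not passing and the most abundant; IFNB1, CPS1, PTGS2, CGAS, STING1, TBK1, CD274, HLA-B, CLDN3 and CLDN7 were chosen after their values were seen. Near-identical genes can share reads. Counting used Python 3.11.15, numpy 2.4.6, pandas 2.3.3 and scipy 1.17.1 and was tested on simulated data. Some genes are not reported here by name; they stay in the counts.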

Additional observations from a re-analysis of the deposited data

How the results depend on the processing

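With an adjusted p under 0.01, an adjustment over every row, fold changes centred on the median of all members (a shift of -0.03), a minimum mean of 100 or no minimum, the counts of genes that rose (2427) and fell (3002) stayed within 1.5 times. Requiring also a log2 change of 1 or more left 784 higher and 411 lower. The 11 lists with more than 50% of members higher became 6 at an adjusted p under 0.01 and 0 with that fold rule, and the 15 lists with more than 50% lower became 0 with the fold rule, which by its construction drops shallow changes. The 1 symbol family with more than 50% lower became 0 at an adjusted p under 0.01, 0 with the fold rule, 2 with a minimum mean of 100 and 0 with no minimum. Of 1495 genes that the rule for named genes covers, of which the text names a part, 695 lost their call under the fold rule and 147 at an adjusted p under 0.01. No paired analysis was possible because the table used holds no values per library; for the same reason leaving out each library and the count tests with edgeR or DESeq2 were not run. Depth per library was not used here.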

Other observations

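Genes of neurosecretory granules and neuropeptides, a family put together after the authors' deposited table was seen, rose in 12 of 18 members and fell in 2. VGF, a secreted granule protein, rose by 4.19 ± 0.16 log2, and CHGB, which encodes chromogranin B, rose by 3.17 ± 0.13. NTS, the precursor of neurotensin, rose by 2.95 ± 0.09 at a mean of 2596, and SCG2, secretogranin II, by 2.83 ± 0.44. CPE, which trims peptide hormones, rose by 1.77 ± 0.23. SYT13 (-1.06 ± 0.19) and SYT15 (-1.67 ± 0.50) fell, and STX1A stood at -0.11 ± 0.15. Because the family was chosen on these values, its count is a description only.

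Annexins, calcium-dependent membrane binders, and aquaporins were added in the same way. Of the 13 members 7 fell and 1 rose in the authors' deposited table, all of them annexins. The aquaporins AQP3 (0.04 ± 0.16) and AQP11 (0.28 ± 0.48) did not pass. ANXA4 fell by 1.32 ± 0.08 log2 at a mean of 5703, ANXA3 fell by 1.31 ± 0.08, and ANXA6 rose by 0.75 ± 0.09. ANXA8 (-1.60 ± 0.13) and ANXA8L1 (-2.05 ± 0.10) are near-identical, so their separate values are uncertain. ANXA1, at a mean of 22286, stood at 0.00 ± 0.06. Both metallothioneins among the members fell, MT1X by 0.80 ± 0.18 and MT2A by 0.23 ± 0.09. Of 371 zinc finger genes whose symbols begin with ZNF, 77 rose (20.8%) and 29 fell (7.82%). Of 229 solute carriers 65 rose (28.4%) and 45 fell (19.7%). Over all members 19.6% rose and 24.3% fell, so the rising share of the zinc finger genes was near that of all members.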
